A study of Caenorhabditis elegans with 16 samples.

Results

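Argonaute proteins are the small RNA-binding core of every RNA silencing complex, and 10 of their genes in *C. elegans* were followed here: *prg-1*, *csr-1*, *wago-1*, *wago-4*, *hrde-1* and *ergo-1* of the germline, *alg-3* and *alg-4* of spermatogenesis, and *alg-1* and *alg-2* of the microRNA pathway. They were chosen by gene symbol from 23758 genes in the 3 deposited count tables, and all 10 passed the filter on low counts in each comparison. The libraries were made from whole animals on day 1 of adulthood, grown on OP50 bacteria at 20 °C, with 4 replicates of each of 4 genotypes. Wildtype was N2. The mutant *ubql-1(tm1574)* carries an allele of the ubiquilin gene. The study describes it as a deletion that leaves a truncated mRNA and protein at reduced levels. Animals labelled *hsf-1* OE carry the integrated transgene uthIs235, which expresses *hsf-1* from the *sur-5* promoter and a pharyngeal tdTomato marker from that of *myo-2*. The last strain carries both the transgene and the *ubql-1* allele and is called the double strain here. The transgenic strain is a single integrated line, so an effect of its insertion site or of the tdTomato marker cannot be told apart from that of *hsf-1*.

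Argonautes are loaded with short guide RNAs and act on transcripts that pair with the guide. In the worm germline, PRG-1 binds piRNAs and passes foreign or transposon transcripts to secondary small RNAs that are carried by WAGO-1 in P granules, by HRDE-1 in the nucleus and by WAGO-4, the last 2 of which act in the inheritance of silencing. CSR-1 binds small RNAs against genes that the germline expresses. ERGO-1 and the paralogous pair ALG-3 and ALG-4 carry primary small RNAs made with Dicer, ERGO-1 in the oogenic germline and embryo, ALG-3 and ALG-4 in sperm-producing germ cells. ALG-1 and ALG-2 carry microRNAs, mainly in the soma.

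On WBcel235 the members are protein-coding genes on chromosomes I to V and X, with their whole gene spans given here. The gene *prg-1* (D2030.6) lies on chromosome I at 7585329 to 7588367 on the minus strand, and *wago-1* (R06C7.1) lies on the same chromosome at 7235384 to 7238792 on the plus strand. On chromosome II, *wago-4* (F58G1.1) spans 12919551 to 12923377 and *alg-2* (T07D3.7) spans 873212 to 879885, both on the plus strand. On chromosome III, *hrde-1* (C16C10.3) spans 4172337 to 4176159 and *alg-4* (ZK757.3) spans 9887209 to 9891424, both on the minus strand. For *alg-4* the deposited tables give a shorter span, 9890729 to 9891355, beside a gene length of 3474 bases that is close to the 3463 exonic bases of the annotation, so which span its counts cover was not settled. The genes *csr-1* (F20D12.1, 7957267 to 7962157) and *alg-3* (T22B3.2, 11704246 to 11708264) lie on the plus strand of chromosome IV, *ergo-1* (R09A1.1, 1008803 to 1018352) on the plus strand of V and *alg-1* (F48F7.1, 13949110 to 13956261) on the plus strand of X. Exons of *prg-1*, *csr-1*, *ergo-1* and *alg-1* overlap those of D2030.12, *frpr-10*, *pei-2* and a small nucleolar RNA gene, respectively. The strand setting of the counting was not given, so reads in those overlaps may be split or lost, and this touches the values of these 4 members.

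Libraries held between 18202151 and 30524762 counted reads. In the *ubql-1(tm1574)* libraries the *ubql-1* count was lower than in wildtype (log2 fold change −1.18, SE 0.05, adjusted p = 1.13e-05), and it was lower in the double strain than in *hsf-1* OE (−1.49, SE 0.07, adjusted p = 1.84e-05). The allele is a deletion within the gene, so missing exons and fewer transcripts cannot be told apart in these counts. The *hsf-1* transcript was not higher in the libraries labelled *hsf-1* OE, with 1994 ± 368 normalized counts against 2412 ± 136 in wildtype (SD, n = 4 each) and a log2 fold change of −0.13 (SE 0.13, adjusted p = 0.386). In the double strain, which carries the same transgene, *hsf-1* was higher than in *ubql-1(tm1574)*, with 2828 ± 362 against 2288 ± 52.0 (SD, n = 4 each) and a log2 fold change of 0.36 (SE 0.09, adjusted p = 0.00577). The *hsf-1* OE genotype is therefore referred to by its label, and each direction given for it is a direction in the libraries so labelled. The first principal component held 66.2% of the variance, separated the transgenic from the other libraries, and placed replicates 3 and 4 above replicates 1 and 2 in each of the 4 genotypes. Scaling matters here, since the median gene of the *hsf-1* OE comparison stood at a log2 fold change of 0.28 above wildtype, at 0.11 with DESeq2's scaling, and at 0.64 when libraries were scaled to *cdc-42*, *pmp-3* and *rpb-2*. In both comparisons of the transgene, changes are therefore also given relative to the median gene.

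In counts per kilobase of gene length and per 1000000 reads, the germline members were the most abundant in wildtype. The silencing Argonautes *wago-1* (226.6) and *hrde-1* (218.9) led, and their libraries overlapped. Next came *csr-1* (119.5) and *prg-1* (117.3), which also overlapped, then *ergo-1* (89.6), *wago-4* (54.7), *alg-2* (24.4) and *alg-1* (13.6), each clear of its neighbours. The spermatogenic pair stood last, with *alg-3* at 7.39 and *alg-4* at 7.25 and overlapping libraries. In libraries labelled *hsf-1* OE the order lower down was different, as *alg-3* (24.6 to 27.4) and *alg-4*, which overlapped it, stood above *alg-1* (11.3 to 15.8) and *alg-2* (10.6 to 12.9), and *alg-3* overlapped *wago-4* (22.5 to 38.4). In *ubql-1(tm1574)* the pair reached 14.1 and 13.2, where *alg-3* overlapped *alg-1* (15.3). The gene lengths were those deposited with the counts, 4968 bases for *alg-1* and 3249 for *alg-2*. The annotation gives these genes 6696 and 4142 exonic bases, with which their levels would be lower. The place of *alg-1* above the spermatogenic pair in *ubql-1(tm1574)* therefore rests on the lengths used. In wildtype its mean stays above theirs with either length, but whether its libraries are clear of theirs rests on the lengths.

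**Figure D1:**
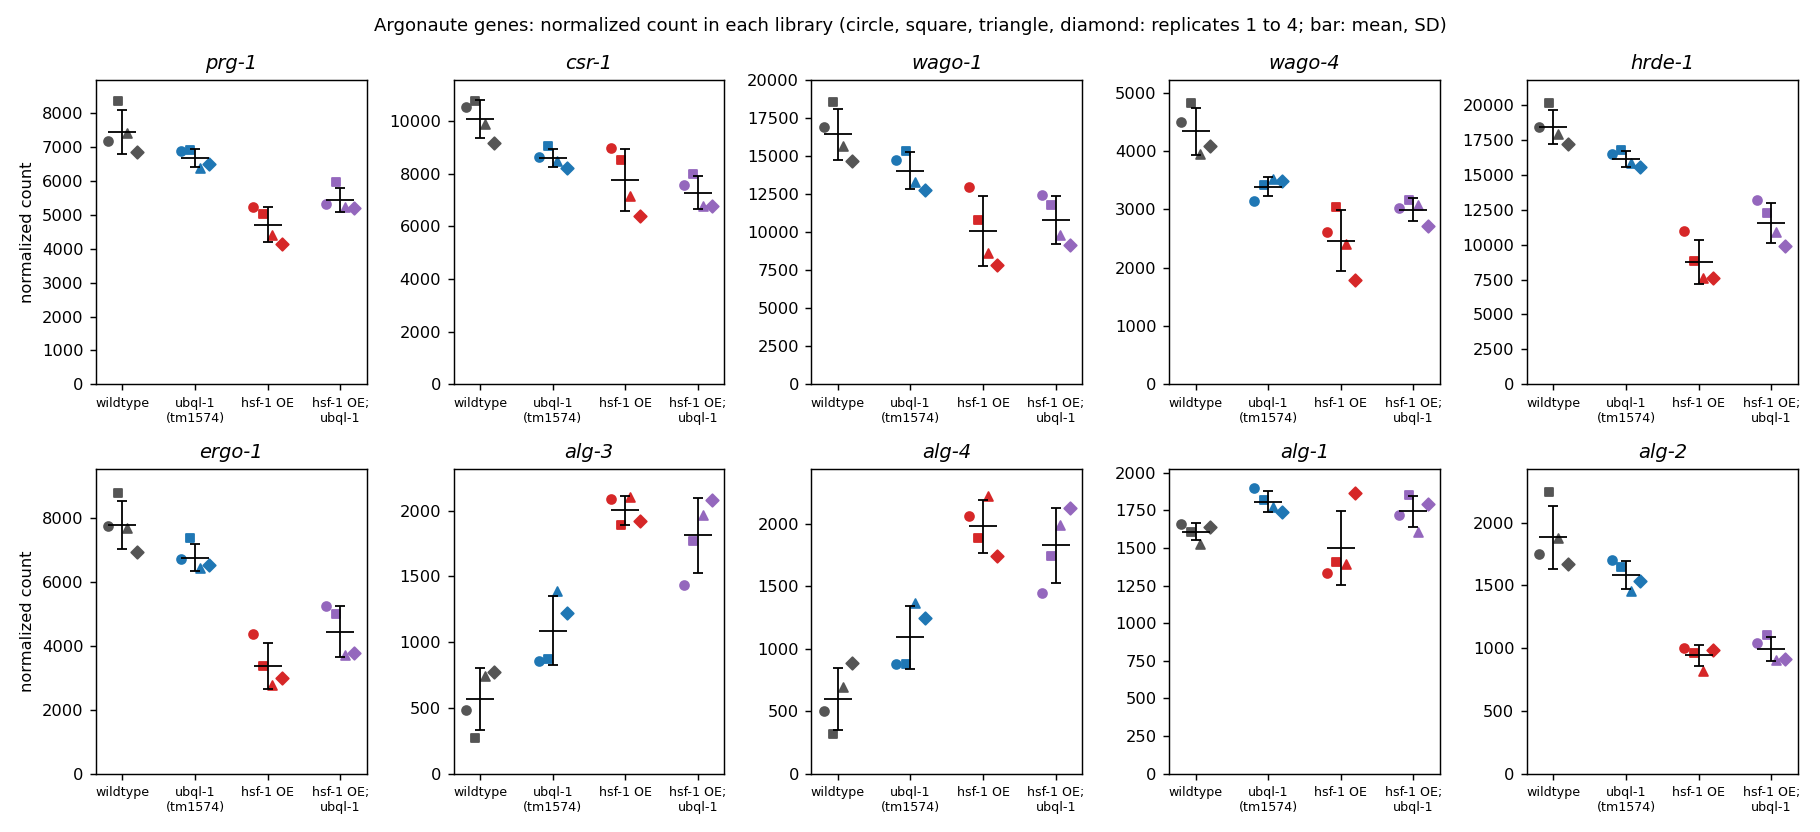
Normalized counts of the 10 Argonaute genes (y axis, linear from 0) in each of the 16 libraries, by genotype (x axis). Points are libraries, with one symbol per replicate number, and bars are the mean and SD of 4. The lowest *alg-3* library labelled *hsf-1* OE (1890) lies above the highest of wildtype (773), and the highest *hrde-1* library labelled *hsf-1* OE (10990) lies below the lowest of wildtype (17187).

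The *hsf-1* OE and wildtype libraries were compared to ask how the Argonaute transcripts differ in the transgenic strain. All 6 germline Argonautes passed the test as lower in the libraries labelled *hsf-1* OE, although with scaling to *cdc-42*, *pmp-3* and *rpb-2* the direction of *csr-1* flipped. The steepest difference was in *ergo-1*, the oogenic and embryonic Argonaute, which was 2.11-fold lower. Next was *hrde-1*, the nuclear Argonaute of silencing inheritance, at 1.92-fold lower. Both spermatogenic Argonautes were higher, *alg-3* 3.87-fold and *alg-4* 3.63-fold. Of the microRNA pair, *alg-2* was 1.81-fold lower and *alg-1* did not pass the test. In all, 9 of 10 members passed edgeR's test at an adjusted p under 0.05, where 67.3% of all genes tested did. Of these, 2 were higher (background 38.6%) and 7 lower (background 28.7%). The share of members called is thus read against a comparison in which most genes passed.

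The individual libraries showed the depth of the fall in *hrde-1*. Wildtype libraries held 18425, 20101, 17888 and 17187 normalized counts, against 10990, 8795, 7620 and 7609 in *hsf-1* OE. No library of one genotype reached the other, and the log2 fold change was −0.94 (SE 0.10, adjusted p = 0.00011). For *ergo-1* the counts were 7752, 8788, 7713 and 6936 in wildtype against 4371, 3375, 2771 and 2996 in *hsf-1* OE. The groups again stood apart, with a log2 fold change of −1.08 (SE 0.12, adjusted p = 0.000138). The gene *pei-2*, whose exons overlap those of *ergo-1* on the other strand, moved the opposite way, from a mean of 227 normalized counts in wildtype to 606 in *hsf-1* OE.

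The fall was shallower in the remaining germline members. The piRNA Argonaute *prg-1* counted 7171, 8343, 7402 and 6836 in the wildtype libraries against 5234, 5036, 4405 and 4150 in those of *hsf-1* OE, all lower, with a log2 fold change of −0.53 (SE 0.08, adjusted p = 0.000583). In *wago-4*, counts of 4503, 4819, 3939 and 4079 in wildtype stood above 2605, 3043, 2409 and 1785 in *hsf-1* OE (log2 fold change −0.68, SE 0.14, adjusted p = 0.00234). For *wago-1* the wildtype libraries lay between 14688 and 18534 and the *hsf-1* OE libraries between 7876 and 12961, a log2 fold change of −0.58 (SE 0.13, adjusted p = 0.00342). The smallest difference of the 6 was in *csr-1*, with wildtype libraries at 10526, 10738, 9895 and 9145 normalized counts and *hsf-1* OE libraries at 8963, 8504, 7151 and 6393. The log2 difference was −0.25 (SE 0.10, adjusted p = 0.0434), and the call was lost when wildtype replicate 1, 2 or 3 or *hsf-1* OE replicate 3 was left out (adjusted p between 0.0548 and 0.101). With libraries scaled to *cdc-42*, *pmp-3* and *rpb-2*, *prg-1*, *wago-1* and *wago-4* no longer passed (adjusted p between 0.0638 and 0.0977), and *csr-1* stood at 0.11 (adjusted p = 0.268). Relative to the median gene, the 6 lay between −0.53 for *csr-1* and −1.36 for *ergo-1*.

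The spermatogenic pair moved far in the other direction. In normalized counts, wildtype *alg-3* stood at 487, 272, 744 and 773, and *alg-3* of *hsf-1* OE at 2089, 1890, 2105 and 1921. For *alg-4* the counts were 500, 314, 694 and 886 in wildtype and 2064, 1883, 2224 and 1737 in *hsf-1* OE. The groups did not overlap for either gene, and the wildtype libraries varied more among themselves than those of *hsf-1* OE, with replicates 1 and 2 below replicates 3 and 4. The log2 fold change was 1.95 for *alg-3* (SE 0.27, adjusted p = 0.000347) and 1.86 for *alg-4* (SE 0.26, adjusted p = 0.000367). Both kept their call in every alternative run, between 1.64 and 2.13 when single libraries were left out. Relative to the median gene *alg-3* stood at 1.67 and *alg-4* at 1.58. All 9 called members had libraries that did not overlap, 2 above wildtype (28.5% of all genes tested) and 7 below (31% of all genes tested).

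The microRNA Argonautes diverged from each other. The *alg-2* counts were 1746, 2239, 1875 and 1666 in wildtype and 999, 960, 821 and 989 in *hsf-1* OE, with no overlap and a log2 fold change of −0.86 (SE 0.11, adjusted p = 0.00023). The *alg-1* counts were 1659, 1608, 1527 and 1637 in wildtype and 1336, 1409, 1392 and 1862 in *hsf-1* OE. Here 3 transgenic libraries lay below all of wildtype and the last, replicate 4, above all of it. The log2 fold change of *alg-1* was 0.04 with a 95% interval from −0.25 to 0.34 (adjusted p = 0.77). Its sign depended on the scaling, being negative with DESeq2 and, at 0.41, positive and past the test (adjusted p = 0.0261) with scaling to *cdc-42*, *pmp-3* and *rpb-2*. Relative to the median gene of the main fit, *alg-1* stood at −0.24 and *alg-2* at −1.14.

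Markers of germline cell types moved with these differences. The counts of markers that passed stand beside 38.6% of all genes tested that were higher and 28.7% that were lower. Summed normalized counts of 20 spermatogenesis markers ranged from 7006 to 13997 in wildtype and from 20023 to 27811 in *hsf-1* OE, and 18 of 20 passed as higher (median log2 fold change 1.57). The 16 oocyte and eggshell markers went from 292882 to 400257 in wildtype down to 109777 to 201105, with 14 of 16 lower (median −1.21). The 14 markers of proliferating and meiotic germ cells went from 81249 to 88923 down to 41687 to 61121, with 12 of 14 lower (median −0.66). Somatic markers were higher, with 6 of 7 muscle (median 0.431) and 8 of 8 intestine genes (median 0.702) passing as higher. Of the moulting and larval cuticle genes 14 of 16 passed as higher and 1 as lower, with a larger median of 2.999. The median of all genes tested was 0.28. The moulting sum of *hsf-1* OE replicate 4 was 21683, against 4086 to 8988 in the other 3 libraries of its genotype. Among 9 early embryo markers, summing to 20 to 35 in wildtype and 75 to 98 in *hsf-1* OE, 2 were tested and both were higher, *pes-10* from a mean of 2.65 to 44.4 normalized counts and *end-3* from 6.08 to 29.4. The others were below the filter on low counts, and among them *sdz-38* went from 5.73 to 0.728, *ceh-51* from 6.78 to 1.98, and *tbx-38* was at 0 in all *hsf-1* OE libraries. The part of these marker differences in the Argonaute results was not tested, and in RNA of whole animals fewer cells of a type and less RNA per cell cannot be told apart.

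**Figure D2:**
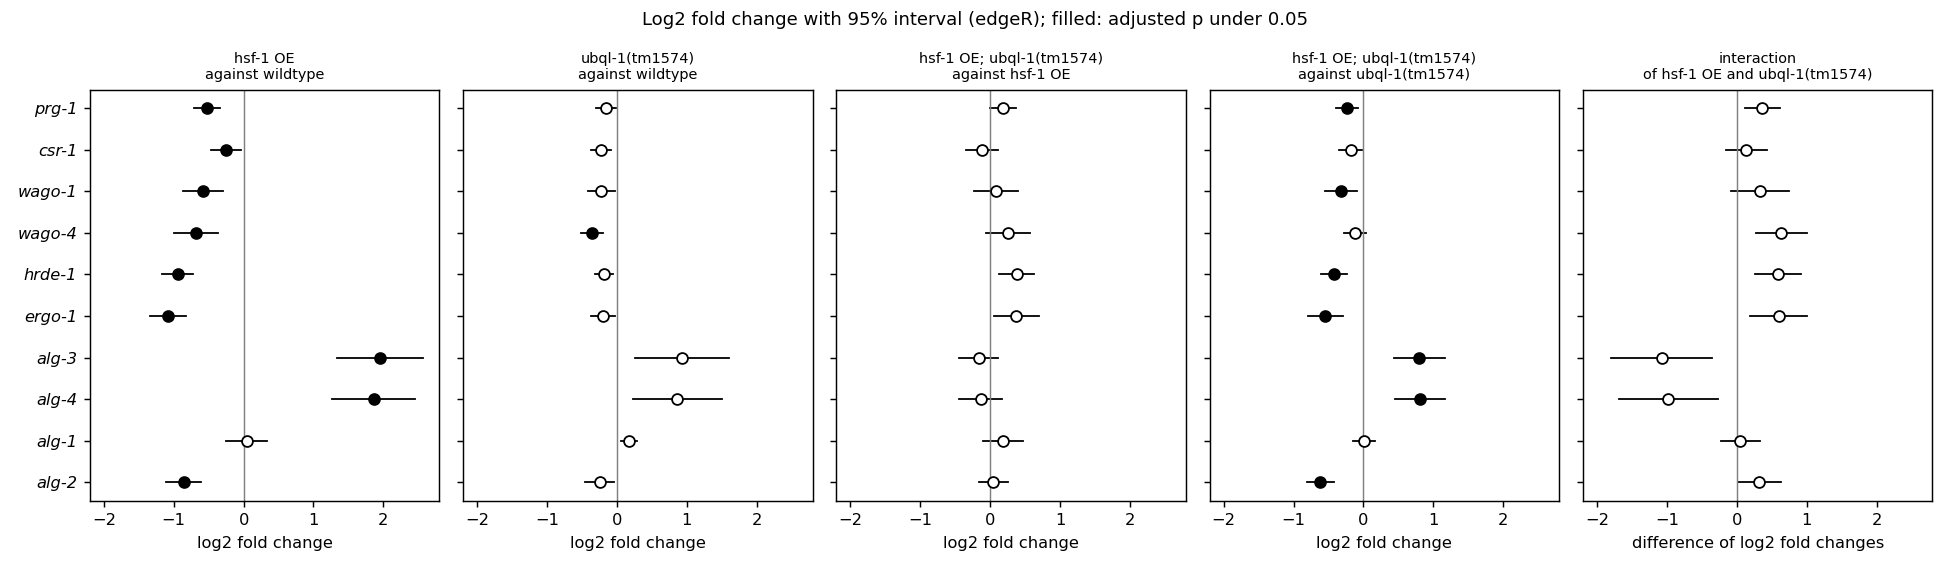
Log2 fold change (x axis) of each Argonaute gene (y axis) in the 4 pairwise comparisons and the interaction, with 95% intervals as lines. Filled points passed edgeR's test at an adjusted p under 0.05, which 9, 1, 0, 7 and 0 members did from left to right. Under scaling to *cdc-42*, *pmp-3* and *rpb-2* these signs flip: *csr-1* of *hsf-1* OE against wildtype, *alg-2* of the double strain against *hsf-1* OE, *prg-1*, *csr-1* and *wago-4* of the double strain against *ubql-1(tm1574)*, and *csr-1* and *alg-1* of the interaction. Under DESeq2's scaling *alg-1* flips in both comparisons of the transgene.

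Other genes of the small RNA pathways were examined in the same comparison from lists chosen by function, with earlier results of these data known. Of 13 other Argonautes, 4 were higher and 7 lower in libraries labelled *hsf-1* OE, where 38.6% of all genes tested were higher and 28.7% lower. The rises were led by *wago-5*, from 0 to 4.03 normalized counts in wildtype to 36.9 to 65.7 (log2 fold change 4.92, SE 0.52, adjusted p = 0.000124), and by *wago-10* (2.84, SE 0.28, adjusted p = 8.86e-05). The largest falls were in *alg-5*, a further microRNA-class Argonaute expressed in the germline, which went from 3530 ± 298 to 903 ± 152 normalized counts (−1.83, SE 0.10, adjusted p = 3.86e-06), and in *wago-11* (−1.20, SE 0.24, adjusted p = 0.00192). The other risers were *sago-1* (1.37) and *sago-2* (1.04).

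The factors that make or use Argonaute-bound RNAs were mostly lower, where 28.7% of all genes tested were lower and 38.6% higher. Among Dicer and ERI complex factors, 9 of 10 fell, led by the exonuclease gene *eri-1* (−0.69) and *rde-4* (−0.67), which encodes the double-stranded RNA-binding partner of Dicer. Among RNA-dependent RNA polymerases and mutator factors 15 of 16 fell, led by the helicase gene *smut-1* (−0.90) and *rde-8* (−0.89), which encodes an endoribonuclease. Of the piRNA factors 14 of 18 fell, led by *tofu-5* (−0.75) and *erh-2* (−0.72), and of the nuclear RNAi factors 7 of 8, led by the histone methyltransferase gene *set-25* (−0.86) and *hpl-2* (−0.64). Of the microRNA factors 10 of 11 fell, led by *pash-1* (−0.77), the partner of Drosha, and *cgh-1* (−0.76). None of these 5 lists had a higher member. Systemic RNAi genes were mixed, with *sid-2*, needed for uptake of double-stranded RNA from the gut, higher (1.01), and 3 of 7 lower, led by the channel gene *sid-1* (−0.75) and *rsd-6* (−0.63). The medians were −0.51, −0.56, −0.49, −0.50, −0.40 and 0.14 in that order, and −0.38 for the other Argonautes, beside 0.28 for all genes tested.

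The *ubql-1(tm1574)* libraries were compared with the same wildtype libraries to ask how these transcripts differ with the *ubql-1* allele in the absence of the transgene. Without pairing, 1 of 10 members passed, where 8.31% of all genes did. It was *wago-4*, the Argonaute of silencing inheritance, with 3143, 3420, 3519 and 3476 normalized counts in *ubql-1(tm1574)* below the wildtype counts given above. The log2 fold change of *wago-4* was −0.35 (SE 0.07, adjusted p = 0.0277), where 4.12% of genes were lower, and it no longer passed without wildtype replicate 1 or without *ubql-1(tm1574)* replicate 1, 3 or 4 (adjusted p between 0.0648 and 0.0727). Nor did *wago-4* pass in the fit of all 16 libraries (adjusted p = 0.0919) or with scaling to *cdc-42*, *pmp-3* and *rpb-2* (adjusted p = 0.0641), where *alg-1* passed in its place as higher (0.22, adjusted p = 0.034). Without wildtype replicate 4 a total of 6 members passed, where 1953 of 14359 genes did.

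Same-numbered libraries of these 2 genotypes deviated together, and with replicate number as a block all 10 members passed, where 30.2% of all genes did. In that fit 7 members were lower, namely *wago-4*, *csr-1* (−0.23, adjusted p = 0.00746), *wago-1* (−0.22, adjusted p = 0.00618), *ergo-1*, *hrde-1*, *prg-1* and *alg-2*, where 14.1% of genes were lower. The other 3 were higher, where 16.1% of genes were. These were *alg-3* (0.99, SE 0.15, adjusted p = 0.0073), *alg-4* (0.92, SE 0.14, adjusted p = 0.0073) and *alg-1* (0.17, SE 0.04, adjusted p = 0.0173). Without the block *alg-3* stood at 0.93 (SE 0.30, adjusted p = 0.0726), *alg-4* at 0.87 (SE 0.28, adjusted p = 0.0765) and *alg-1* at 0.17 (SE 0.05, adjusted p = 0.0616).

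By library, *alg-3* had 858, 874, 1387 and 1224 normalized counts in *ubql-1(tm1574)*, all above the highest wildtype library, and *alg-4* had 875, 879, 1364 and 1247, overlapping wildtype replicate 4 at 886. The *alg-1* counts of 1895, 1821, 1772 and 1735 all exceeded wildtype. For *hrde-1*, counts of 16443, 16749, 15799 and 15535 all lay below wildtype. Libraries of *csr-1* (8213 to 9054) also lay below wildtype, so that 3 members were wholly below (11.5% of all genes tested) and 2 wholly above (11.1%). Spermatogenesis marker sums were 13111 to 19208 in *ubql-1(tm1574)*, with 1 of 20 markers higher, or 15 of 20 with the block. Of the oocyte markers 0 of 16 were lower in edgeR's test, or 13 with the block (sums 269322 to 310657), and of the germline markers 7 of 14, or 10 with the block (73364 to 79284). Of the moulting and larval cuticle markers 9 of 16 were higher, or 13 with the block. Their sums were 3775 to 5941, against 3339 to 3625 in wildtype. Without the block 1 of 8 intestine and 0 of 7 muscle markers were higher. Beside these counts of higher markers, 594 of 14183 genes tested were higher without the block. The part of these marker differences in the result was not tested. Among the other Argonautes *wago-2* passed without the block, at a log2 fold change of −0.44 (adjusted p = 0.0132). With the block *wago-2* (−0.44, adjusted p = 0.00112) and *alg-5* (−0.17, adjusted p = 0.0124) were lower, and *wago-10* (0.80, adjusted p = 0.0151) and *sago-1* (0.23, adjusted p = 0.0175) were higher.

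**Figure D3:**
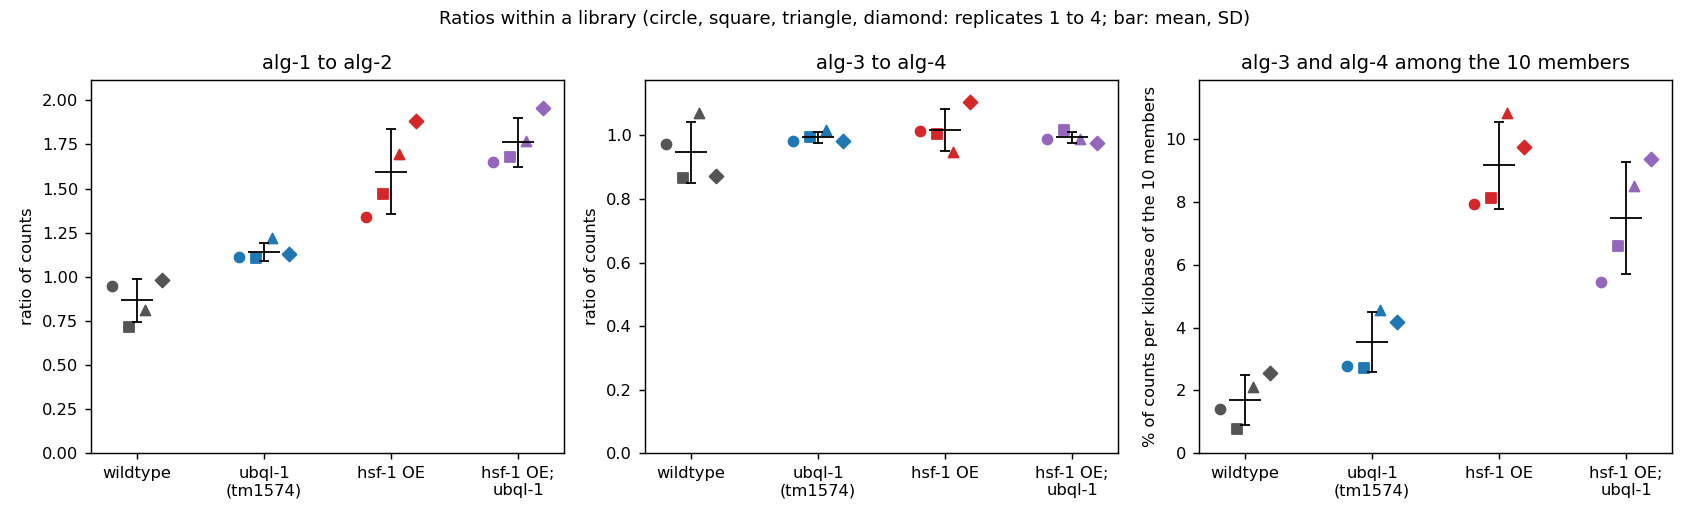
Ratios within a library, which do not depend on library scaling: *alg-1* to *alg-2* counts, *alg-3* to *alg-4* counts, and the percentage of the 10 members' summed counts per kilobase that came from *alg-3* and *alg-4* (y axes from 0), by genotype (x axis). Points are libraries, bars are mean and SD of 4. The first ratio rises from 0.718 to 0.983 in wildtype to 1.34 to 1.88 in *hsf-1* OE, while the second stays between 0.867 and 1.11.

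Ratios within a library describe the balance between members without any scaling. The count ratio of *alg-1* to *alg-2* ran from 0.718 to 0.983 in wildtype and from 1.11 to 1.22 in the *ubql-1(tm1574)* libraries. It ran from 1.34 to 1.88 in those labelled *hsf-1* OE and from 1.65 to 1.95 in the double strain. The wildtype, *ubql-1(tm1574)* and *hsf-1* OE ranges did not overlap, while those of *hsf-1* OE and the double strain did. The *alg-3* to *alg-4* ratio lay between 0.867 and 1.11 in all 16 libraries. Together *alg-3* and *alg-4* made up 0.76% to 2.56% of the members' counts per kilobase in wildtype and 2.70% to 4.55% with the *ubql-1* allele alone. That share was 7.93% to 10.8% with the transgene alone and 5.44% to 9.36% with both. Within the same pool *hrde-1* held 24.9% ± 0.219 in wildtype and 18.8% ± 0.934 in *hsf-1* OE, *ergo-1* 10.2% ± 0.286 and 6.98% ± 0.593, and *csr-1* 13.6% ± 0.398 and 16.6% ± 0.588 (SD, n = 4 each). The shares of *hrde-1* and *ergo-1* thus fell and that of *csr-1* rose without overlap between these genotypes, while *prg-1* kept overlapping shares of 13.3% ± 0.406 and 13.5% ± 0.62.

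The double strain was compared with *ubql-1(tm1574)* to see the transgene's difference where the *ubql-1* allele is shared. In edgeR's test 7 of 10 members passed, where 59.1% of all genes did: 2 higher (background 31.5%) and 5 lower (background 27.7%). The *alg-2* counts of 1043, 1105, 909 and 916 in the double strain lay below 1700, 1648, 1455 and 1535 in *ubql-1(tm1574)*, a log2 fold change of −0.62 (SE 0.09, adjusted p = 0.000549). For *ergo-1*, counts of 5258, 5021, 3723 and 3799 lay below 6723, 7403, 6437 and 6537 (−0.55, SE 0.12, adjusted p = 0.00261). For *hrde-1*, counts of 13179, 12261, 10880 and 9920 in the double strain gave −0.42 (SE 0.09, adjusted p = 0.00243).

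The smaller falls were in *wago-1* (−0.32, SE 0.10, adjusted p = 0.0215) and *prg-1* (−0.23, SE 0.07, adjusted p = 0.0143). The call for *wago-1* was lost without *ubql-1(tm1574)* replicate 1 or 2, or double-strain replicate 3 or 4 (adjusted p between 0.0554 and 0.0645). The spermatogenic pair was 1.74-fold higher in *alg-3*, with 1432, 1771, 1967 and 2078 counts in the double strain (log2 fold change 0.80, SE 0.16, adjusted p = 0.00243), and 1.75-fold higher in *alg-4* (0.80, SE 0.16, adjusted p = 0.00222). The remaining members gave −0.18 for *csr-1* (adjusted p = 0.0544, or 0.0209 with the replicate block, where 66.3% of all genes passed), −0.12 for *wago-4* (95% interval −0.27 to 0.04) and 0.01 for *alg-1* (95% interval −0.15 to 0.17), whose sign flipped with DESeq2's scaling. Scaled to *cdc-42*, *pmp-3* and *rpb-2*, *prg-1* (0.05), *csr-1* (0.10) and *wago-4* (0.17) changed sign, *wago-1* no longer passed (−0.04), and *alg-1* passed as higher (0.30, adjusted p = 0.00345). Here 12 of 20 spermatogenesis markers were higher, and 15 of 16 oocyte markers and 11 of 14 germline markers lower. Of the moulting and larval cuticle markers 14 of 16 were higher and 1 lower. Of the other somatic markers 7 of 8 intestine and 5 of 7 muscle genes were higher. The part of these markers in the result was not tested.

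Of the other Argonautes, 3 of 12 tested were higher and 5 lower in the double strain than in *ubql-1(tm1574)*. Of all genes tested 31.5% were higher and 27.7% lower. The rises were led by *wago-10* (1.66) and *sago-2* (0.92) and the falls by *alg-5* (−1.28) and *wago-11* (−1.06). The factor lists had 7 of 10 Dicer and ERI, 13 of 16 polymerase and mutator, 13 of 18 piRNA, 7 of 8 nuclear RNAi and 10 of 11 microRNA genes lower and none higher. Their steepest falls were in *rde-4* (−0.60), *smut-1* (−0.63), *tofu-6* (−0.58), *set-25* (−0.52) and *cgh-1* (−0.55). The median of all genes was 0.11. Relative to it the germline members lay between −0.23 for *wago-4* and −0.66 for *ergo-1*. In the same terms *alg-3* and *alg-4* stood at 0.69 each, *alg-2* at −0.73 and *alg-1* at −0.10.

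The double strain was also compared with *hsf-1* OE, to see what the *ubql-1* allele changes in the transgenic background. Without the block no member passed edgeR's test, where 0.932% of all genes did. At an unadjusted p under 0.05 there were 2 members, *hrde-1* and *ergo-1*, where 11.5% of all genes were under it, and DESeq2 called 0, where it called 2.89% of all genes. With replicate number as a block, which same-numbered libraries of this pair allowed, *hrde-1* (0.38, SE 0.05, adjusted p = 0.0108) and *ergo-1* (0.38, SE 0.06, adjusted p = 0.014) were higher in the double strain, where 3.4% of all genes were. The counts overlapped in both, at 9920 to 13179 against 7609 to 10990 in *hrde-1* and 3723 to 5258 against 2771 to 4371 in *ergo-1*. The intervals of the other differences, without the block, ran from −0.01 to 0.37 for *prg-1*, −0.34 to 0.11 for *csr-1*, −0.23 to 0.39 for *wago-1* and −0.05 to 0.57 for *wago-4*. For *alg-3* they ran from −0.45 to 0.12, for *alg-4* from −0.44 to 0.17, for *alg-1* from −0.10 to 0.47 and for *alg-2* from −0.16 to 0.26. Of the other Argonautes *wago-5* was lower in the double strain, at 0 to 4.46 normalized counts, by log2 −4.20 (SE 0.50, adjusted p = 0.00529). With the block *vsra-1* (0.68), *alg-5* (0.42) and *ppw-2* (0.38) were higher as well. With the block 12 of 16 oocyte markers were higher, against 0 without it, and their part in the result was not tested.

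Whether the transgene's difference itself varied with the *ubql-1* allele was tested as an interaction over all 16 libraries. No member passed edgeR's test, where 0.658% of all genes did. At an unadjusted p under 0.05 there were 7 members, where 19.4% of all genes were under it, and DESeq2 called 5, where it called 5.68%. With replicate number as a block 6 members passed, where 10.2% of all genes did. These were *hrde-1* (adjusted p = 0.00946), *wago-4* (0.018), *ergo-1* (0.0199) and *prg-1* (0.0232), all positive, where 3% of genes passed as positive, and *alg-3* (0.0211) and *alg-4* (0.0256), both negative, where 7.21% did. The block rests here on numbers that were not taken as pairs between *hsf-1* OE and wildtype. Without the block the spermatogenic pair had the largest values among the members, −1.07 for *alg-3* (SE 0.34, adjusted p = 0.127) and −0.98 for *alg-4* (SE 0.33, adjusted p = 0.145). Among the germline members the values were 0.64 for *wago-4* (SE 0.17, adjusted p = 0.0913), 0.60 for *ergo-1* (SE 0.19, adjusted p = 0.132), 0.59 for *hrde-1* (SE 0.16, adjusted p = 0.089) and 0.37 for *prg-1* (SE 0.12, adjusted p = 0.132). The sign was opposite to that of the *hsf-1* OE difference in wildtype in each of these 6. Without wildtype replicate 4 all 6 passed, where 893 of 15865 genes did. Without *hsf-1* OE replicate 1 *prg-1*, *wago-4*, *hrde-1* and *ergo-1* passed, where 1659 of 15846 genes did. Without *hsf-1* OE replicate 2 *wago-4* passed, where 70 of 15835 genes did. The values of *csr-1* (0.14), *wago-1* (0.33), *alg-1* (0.05) and *alg-2* (0.32) had adjusted p between 0.239 and 0.87. Of the other Argonautes *ppw-2* (0.50, adjusted p = 0.0295) and *wago-2* (0.67, adjusted p = 0.0214) passed, and with the block 5 passed as positive and 2 as negative. Since the comparisons share wildtype, *hsf-1* OE or double-strain libraries, their values are not independent of each other.

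**Figure D4:**
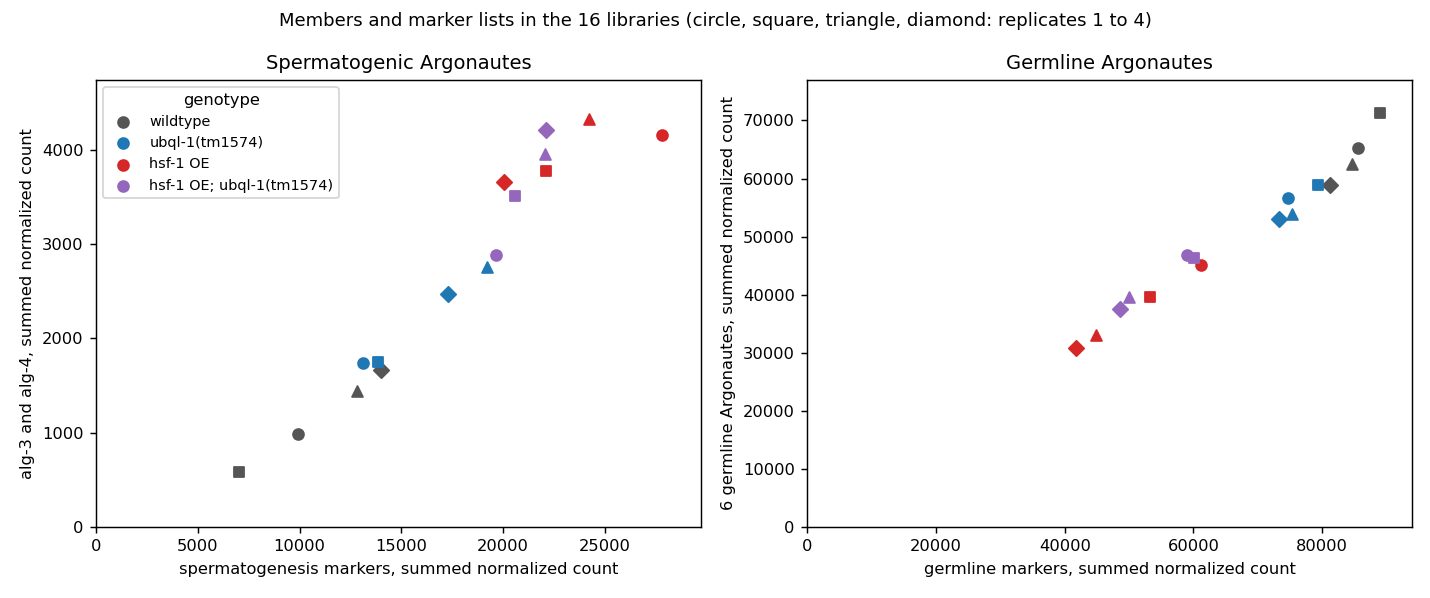
Summed normalized counts of *alg-3* and *alg-4* against those of 20 spermatogenesis markers (left), and of the 6 germline Argonautes against those of 14 germline markers (right), both axes linear from 0. Each point is 1 of 16 libraries, coloured by genotype, with one symbol per replicate number. The germline sum lies between 71.6% and 80.2% of the marker sum in every library.

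Across the 16 libraries the members sorted into 2 profiles, with *alg-1* outside both. On log2 normalized counts, Pearson's r of *alg-3* with *alg-4* was 0.996, and the other genes nearest to *alg-3* among 6513 compared were *clec-123* (0.996) and *catp-4* (0.996). Nearest to *alg-4* after its paralogue were *spe-18* (0.995), a sperm gene, and *pei-1* (0.995). Those nearest to *prg-1* were *pzf-1* (0.984), *sqv-4* (0.980) and *puf-7* (0.976), and its r was 0.970 with *hrde-1*, 0.969 with *ergo-1* and −0.88 with *alg-3*. The microRNA Argonaute *alg-2* shared the profile of the germline members, with an r of 0.943 with *prg-1* and −0.92 with *alg-3*. For *alg-1* the nearest were *hyl-2* (0.871), *rbc-1* (0.849) and *sec-16A.2* (0.821), and its r with *alg-3* was −0.14. The libraries fall into genotypes that share these differences, so the coefficients are descriptive.

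The members were also set against the markers in the same library. The summed counts of the 6 germline Argonautes were 75.7% ± 3.41 of the counts of the 14 proliferating and meiotic germline markers in wildtype, 73.5% ± 1.89 with the *ubql-1* allele, 73.9% ± 0.264 with the transgene and 78.2% ± 1.18 with both (SD, n = 4 each). The libraries of the double strain lay above those of *hsf-1* OE in that ratio, while wildtype overlapped each of the other genotypes. Against the 16 oocyte markers the ratio was 19.4% ± 1.20 in wildtype and 26.2% ± 3.20 in *hsf-1* OE, without overlap. The *alg-3* and *alg-4* counts together were 10.3% ± 1.55 of those of the spermatogenesis markers in wildtype, 13.6% ± 0.838 with the *ubql-1* allele, 14.9% to 18.3% with the transgene and 17.2% ± 1.87 with both. All libraries of the other 3 genotypes lay above all of wildtype in that ratio. Each sum is weighted by its most abundant genes.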

How the data were processed

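Poly(A) mRNA, purified from total RNA of whole animals, was sequenced in 16 libraries. Per the submitters' processing notes, the authors aligned reads with HISAT2 2.0.5 to WBcel235, counted them per gene with featureCounts 1.5.0-p3 and used DESeq2. The annotation release and strand setting are not given in the sources used here. The deposited unit used is raw counts. The 48 per-library columns of other values and the columns of the authors' own fold changes and p-values were not used. The 3 tables of 8 libraries were joined by gene ID. Counts of libraries held in more than 1 table were identical, and 4.57% of values, for genes absent from a table, were set to 0. Symbols came from RefSeq locus tags (23180 of 23758 matched) and positions from the Ensembl annotation of WBcel235, because the tables name no symbols. No sequence is printed, because none was used.

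Each pair of genotypes was fitted with edgeR 4.0.16 in R 4.3.3 (TMM, filterByExpr, quasi-likelihood F test, two-sided, Benjamini-Hochberg over all genes tested, called at adjusted p under 0.05). Intervals are 95% intervals of that fit. The double strain and *ubql-1(tm1574)*, which share no table, and the interaction used the joined counts. Normalized counts were scaled over all 16 libraries, so their ratios can differ from the fitted fold changes, which use the libraries of that comparison. On simulated data with 200 genes changed by a log2 fold of 2, the edgeR step recovered 187 for *hsf-1* OE against wildtype (14794 genes) and 173 for the interaction (15645 genes). The study's legend for the double strain and *hsf-1* OE calls the replicates biological. The labels number them and describe no separate cultures, so p-values measure the spread between these samples.

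Replicate numbers are shared by the genotypes. Same-numbered libraries correlated, in their deviations from genotype means, with r of at least 0.152 (*ubql-1(tm1574)* and wildtype), 0.378 (double strain and *hsf-1* OE) and 0.131 (double strain and *ubql-1(tm1574)*), above the limit of 0.1, and 0.095 (*hsf-1* OE and wildtype), below it, so pairing was taken from the data for the first 3. The block was the alternative throughout. Other alternatives were DESeq2 1.42.0, RLE scaling, no filter, scaling to *cdc-42*, *pmp-3* and *rpb-2*, all 16 libraries in 1 fit, each library left out, and a fold limit. Fits on replicates 1 and 2 or 3 and 4 alone were chosen after seeing the data. The members and lists were chosen with earlier results of these data known. Named were all 10 members, at most the 2 largest rises and 2 largest falls past the call in each other list, genes needed for small counts, and the 3 genes most like *alg-3*, *alg-4*, *prg-1* and *alg-1*, among genes with a mean of at least 100 normalized counts (log2 after adding 1). Symbols with no match (7) were left out.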

Additional observations from a re-analysis of the deposited data

Results flagged for a closer look

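Of 40 groups of 4 libraries, 1 for each member and genotype, 2 held a library far from the other 3 by Dixon's test of the gap against the range, which chance alone meets in about 1 of 20 groups. In the double strain *prg-1* had 5976 normalized counts in replicate 2 and 5207 to 5331 in the others, a gap of 0.839 of the range. In *hsf-1* OE *alg-1* had 1862 in replicate 4 and 1336 to 1409 in the others, a gap of 0.861 of the range. That library also had the highest moulting marker sum, 21683. Without it the log2 fold change of *alg-1* between *hsf-1* OE and wildtype was −0.19, and the part of the moulting markers in this was not tested.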

How the results depend on the processing

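Between *hsf-1* OE and wildtype 9960 genes and 9 members passed, 6603 genes with only replicates 1 and 2, and 3873 genes and 3 members (*alg-3*, *alg-4*, *ergo-1*) with a log2 fold over 1 required as well. Scaling to *cdc-42*, *pmp-3* and *rpb-2* moved the split of higher to lower genes from 5711 and 4249 to 8437 and 2047 (DESeq2 4610 and 4897) and turned *csr-1* to 0.11, and between the double strain and *ubql-1(tm1574)* it moved 4782 and 4206 to 7180 and 1502 and turned *prg-1* to 0.052. In that comparison 2223 genes and 0 members passed with the fold limit. Between *ubql-1(tm1574)* and wildtype 1178 genes passed, 2570 with DESeq2, 611 with *cdc-42*, *pmp-3* and *rpb-2*, 5 with replicates 1 and 2, 342 with the fold limit, and 103 to 1953 with a library left out. The members were 4 with DESeq2, 2 with no filter (1001 genes) and 1 (*alg-1* in place of *wago-4*) with *cdc-42*, *pmp-3* and *rpb-2*. They were 2 in the fit of all 16 (915 genes) and 2 with replicates 3 and 4 (985 genes), all of them higher. They were 0 with replicates 1 and 2, 0 with the fold limit and 0 to 6 with a library left out. Between the double strain and *hsf-1* OE 145 genes passed, 449 with DESeq2, 251 in the fit of all 16, 32 with replicates 1 and 2, 59 with 3 and 4, 95 with the fold limit and 58 to 152 with a library left out. In the interaction 103 genes passed, 889 with DESeq2, 159 with *cdc-42*, *pmp-3* and *rpb-2*, 323 with replicates 1 and 2, 609 with 3 and 4, and 39 to 1659 with a library left out, and members numbered 5, 1, 2, 3 and 0 to 6. The causes were not tested.

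With replicate number as a block 4287 genes and 10 members passed between *ubql-1(tm1574)* and wildtype, 994 and 2 between the double strain and *hsf-1* OE, and 1597 and 6 in the interaction. The block changed no member's call between *hsf-1* OE and wildtype, where the numbers were not taken as pairs, and 1, *csr-1*, between the double strain and *ubql-1(tm1574)*. Of the values of single members under the alternatives, 757 kept direction and call, 62 gained a call, 21 lost it, 28 changed sign without a call on either side and 2, called at first, reversed. Without the length correction 6 members changed rank by level in wildtype, *hrde-1* then leading *wago-1*. A search for heat shock elements was not run, as no promoter sequence was used here.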
